A study of Mus musculus with 69 samples.

Results

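A set of 9 amino acid transporter genes known from the proximal tubule was followed through RNA-seq libraries of microdissected mouse kidney tubules. They were chosen by gene symbol, as the rows named Slc6a19, Slc6a20b, Slc1a1, Slc36a2, Slc7a9, Slc3a1, Slc7a7, Slc7a8 and Slc6a13, and not by any measured value. All 9 were listed in each of the 4 deposited tables, out of 56783 genes listed in at least 1 table. In the first segment of the proximal tubule 8 of the 9 were abundant, at group means between 56.6 and 729 TPM (transcript abundance scaled to the same total in every library), while Slc36a2 was near 0. None of the 8 passed the test for a change after nephrectomy, at 24 h or at 72 h.

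The tissue came from wild-type male C57BL/6 mice aged 7 weeks of which some underwent unilateral nephrectomy (UNx), the removal of a kidney, and others a sham operation; after UNx the other kidney grows and takes over the lost function. PT-S1, the first proximal tubule segment, or the cortical collecting duct (CCD) was dissected by hand 24 h or 72 h later, and no genetic modification or drug is given for any group. PT-S1 at 24 h comprised 8 sham libraries of 3 animals and 9 UNx libraries of 4 animals, and at 72 h 12 libraries of 5 animals in each group. For CCD there were at 24 h 8 sham libraries of 4 animals and 7 UNx libraries of 3 animals, and at 72 h 7 sham and 6 UNx libraries of 4 animals each. Several libraries carry the same animal number, so the animal was the replicate, and n below is the number of animals. In pieces of tissue, fewer cells of a type and less RNA per cell cannot be told apart.

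The proximal tubule recovers nearly all filtered amino acids. Apical carriers in the brush border take them up from the filtrate, mostly driven by sodium, and exchangers and facilitated carriers in the basolateral membrane pass them on to the blood. Neutral amino acids enter through the product of Slc6a19, imino acids through the SLC6A20 and SLC36 families, acidic ones through the product of Slc1a1, and cystine with the dibasic amino acids through the heterodimer of Slc7a9 and Slc3a1. Slc7a7 and Slc7a8 encode light chains of basolateral exchangers that need the heavy chain encoded by Slc3a2. Loss of several of these genes causes inherited aminoacidurias, among them Hartnup disorder (SLC6A19), cystinuria (SLC3A1 or SLC7A9) and lysinuric protein intolerance (SLC7A7).

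The dissected segments carried the markers of their labels. All 10 markers of the S1 and S2 proximal tubule reached 1 TPM in each of the 41 PT-S1 libraries, with sums between 5186 and 32755 TPM, against sums between 12.8 and 381.9 TPM in the 28 CCD libraries. All 7 principal cell and all 7 intercalated cell markers reached 1 TPM in every CCD library. Markers of the third proximal segment, S3, were present in PT-S1 libraries as well, at sums that ran from 137.4 to 39524 TPM, and at least 4 of the 10 were at 1 TPM or more in every library. A median correlation under 0.92 with the others of their table was found for 5 libraries: 2 sham libraries of PT-S1 at 24 h (animals 1 and 3), 2 UNx libraries of PT-S1 at 72 h (animals 1 and 2) and 1 sham library of CCD at 72 h (animal 1). The members' differences in PT-S1 are given with and without them. Sequencing depth is unknown, because TPM keeps none.

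The promoters of Slc3a1 and Slc7a7 below are shown because they are the members' promoters that hold the core of the binding site of HNF4, a nuclear receptor of the proximal tubule. RefSeq's promoter table (build GRCm38.p6, which is not the build of the deposited data) matched 8 of the 9 members by symbol, with 15 promoters that run from 250 bases before to 50 bases after a start. The core CAAAGT, searched on both strands (ACTTTG on the other), stood in 2 of these 15 promoters and in 14.4% of all 32851 promoters in the table. It is in capitals below.
Slc3a1 (chr17:85028097-85028396, plus strand): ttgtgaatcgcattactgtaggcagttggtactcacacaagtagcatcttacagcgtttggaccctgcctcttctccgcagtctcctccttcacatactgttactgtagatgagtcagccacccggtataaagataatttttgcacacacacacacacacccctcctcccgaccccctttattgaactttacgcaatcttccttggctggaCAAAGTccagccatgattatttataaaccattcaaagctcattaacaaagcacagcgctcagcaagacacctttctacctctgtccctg
Slc7a7 (chr14:54417895-54418194, minus strand): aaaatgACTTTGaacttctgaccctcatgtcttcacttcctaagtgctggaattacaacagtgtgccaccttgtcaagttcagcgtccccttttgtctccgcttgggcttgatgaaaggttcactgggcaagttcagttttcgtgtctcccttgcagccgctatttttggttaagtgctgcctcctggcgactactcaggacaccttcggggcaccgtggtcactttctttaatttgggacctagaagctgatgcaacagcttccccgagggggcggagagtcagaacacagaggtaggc
With the start base counted as 0, the first base of the match was at -39 in Slc3a1 and at -244 in Slc7a7, where it was on the other strand. A match describes the letters of the sequence and no binding.

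TPM is scaled to transcript length, so the levels of different genes can be set side by side. In PT-S1 of sham animals at 24 h, Slc6a19 stood highest at 729 ± 343 TPM (SD, n = 3), followed by Slc7a7 at 518 ± 83.5. Slc3a1 (358 ± 19.1), Slc7a8 (355 ± 180) and Slc7a9 (341 ± 93.6) came next and differed from each other by less than their spread. Slc1a1 (200.1 ± 103), Slc6a20b (129.0 ± 16.4) and Slc6a13 (94.9 ± 16.7) were lower, and Slc1a1 overlapped with Slc6a20b between animals, while the lowest Slc6a20b animal (112.4 TPM) lay just above the highest Slc6a13 animal (111.4 TPM). Slc36a2 was last at 0.156 TPM. Without the low-correlation libraries Slc6a19 stood at 616 ± 19.0 TPM, Slc7a7 at 559 ± 36.4, Slc3a1 at 382 ± 50.5, Slc7a9 at 371 ± 67.0, Slc7a8 at 279.8 ± 36.9, Slc1a1 at 159 ± 40.6, Slc6a20b at 135 ± 13.4 and Slc6a13 at 105 ± 26.4. At 72 h the sham order was alike, with Slc6a19 first (473 ± 180, n = 5), Slc7a7 second (401 ± 125) and Slc6a13 eighth (56.6 ± 14.9). In UNx animals at 24 h, Slc3a1 ranked first at 399 ± 65.7 TPM (n = 4), ahead of Slc6a19 at 387 ± 114 and Slc7a7 at 357 ± 117, and the animals of these 3 genes overlapped.

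**Figure D1:**
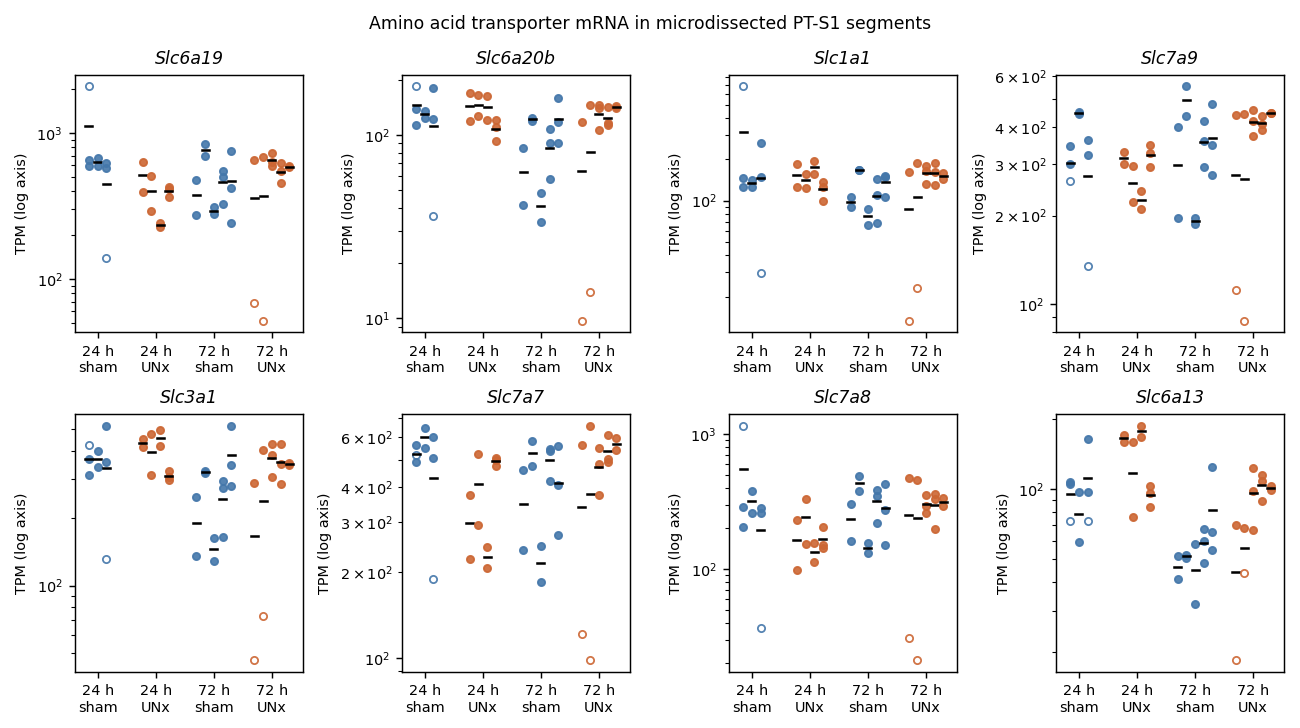
Level of 8 transporters in PT-S1 (TPM, log axis) in the 4 groups; each point is a library, each column of points within a group an animal, each bar the animal's mean, and open points are the low-correlation libraries. Sham and UNx animals overlap in all 8 panels, and both open points at 72 h UNx lie below all other libraries of that group.

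Slc6a19 encodes B0AT1, the main apical carrier of neutral amino acids. At 24 h the 3 sham animals read 1110, 633 and 444 TPM, compared with 511, 402, 234 and 399.8 TPM in the 4 UNx animals. The highest UNx animal lay above the lowest sham animal, and the highest sham animal owed its level to 1 low-correlation library at 2089 TPM beside others at 589 and 652 TPM. The difference, UNx minus sham, was -0.71 on the log2(TPM + 1) scale (SE 0.322, 95% interval -1.43 to 0.00), with p = 0.0506 and an adjusted p of 0.281 by limma. Without the low-correlation libraries it was -0.75 (adjusted p = 0.113), with sham animals between 596 and 633 TPM, above all UNx animals. At 72 h the sham animals had 375, 768, 293, 459 and 470 TPM and the UNx animals 358, 368, 653, 542 and 588 TPM, which overlap. The difference was -0.18 (SE 0.380, adjusted p = 0.765), although the mean TPM was higher in UNx (502 ± 133) than in sham animals (473 ± 180), and it was 0.12 with the log2 of each animal's mean TPM. Cltrn encodes collectrin, the partner that brings B0AT1 to the brush border. Its mRNA stood at 3096 ± 239 TPM in sham and 3415 ± 802 in UNx animals at 24 h, a log2 difference of 0.14 (adjusted p = 0.714).

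Slc6a20b is a mouse counterpart of human SLC6A20, a sodium-dependent carrier of proline. Its level at 24 h was 145, 129 and 112 TPM in sham and 144, 146, 142 and 108 TPM in UNx animals, and both groups covered the same range (log2 difference 0.15, SE 0.190, adjusted p = 0.660, and -0.011 without the low-correlation libraries). At 72 h the 5 sham animals ranged from 40.96 to 122.9 TPM and the 5 UNx animals from 63.5 to 142.0 TPM (difference 0.07, adjusted p = 0.931). Its close relative Slc6a20a was far lower, at 17.02 ± 3.78 TPM in sham animals at 24 h. Reads that fit both genes may have been split between them, so the levels of the pair are uncertain.

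Slc1a1 encodes EAAT3, the apical carrier of glutamate and aspartate. The sham animals at 24 h had 319, 134 and 147 TPM and the UNx animals 155, 141, 176 and 121 TPM. A single low-correlation library of sham animal 1 read 684 TPM beside 126 and 147 TPM in the other libraries of that animal. The log2 difference was -0.04 (SE 0.253, adjusted p = 0.946), and at 72 h, with means of 118 ± 35.5 TPM in sham against 132 ± 33.7 TPM in UNx animals, it was -0.11 (SE 0.356, adjusted p = 0.847). The sign is opposite to that of the means because libraries were averaged on the log2 scale, where the very low values of 2 UNx libraries weigh more, and with the log2 of each animal's mean TPM the difference was 0.18. The differences were -0.078 at 24 h and 0.53 at 72 h when the low-correlation libraries were left out.

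Slc36a2 encodes PAT2, a proton-coupled carrier of glycine and proline, and was the member that went against the proximal tubule label. It was listed at 0 in 18 of the 41 PT-S1 libraries, under 1 TPM in all 41, and at a median of 0.040 TPM. In CCD it was under 1 TPM in all 28 libraries as well, with a median of 0.135 TPM. It did not reach the mean of 1 TPM required for testing in any table.

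Slc7a9 and Slc3a1 encode the light and heavy chains of the cystine carrier, which work as a pair. Slc7a9 had 303, 448 and 273 TPM in the sham and 315, 259, 227 and 322 TPM in the UNx animals at 24 h. Slc3a1 had 368, 369 and 336 TPM in the sham and 435, 394, 459 and 309 TPM in the UNx animals. The log2 differences were -0.22 (SE 0.218, adjusted p = 0.563) for Slc7a9 and 0.21 (SE 0.180, adjusted p = 0.513) for Slc3a1. They were -0.40 (adjusted p = 0.187) and 0.056 (adjusted p = 0.842) when the low-correlation libraries were left out. The ratio of light to heavy chain mRNA was not constant among animals: it had a median of 0.864 in sham animals at 24 h (0.825 to 1.22), of 0.696 in UNx animals at 24 h (0.495 to 1.04), of 1.4995 in sham animals at 72 h (0.973 to 1.54) and of 1.18 in UNx animals at 72 h (1.13 to 1.92). At 72 h Slc7a9 stood at 342 ± 111 TPM in sham and 365 ± 86.5 in UNx animals, and Slc3a1 at 257 ± 95.4 and 296 ± 89.6. Their log2 differences there were 0.0043 and 0.06, with adjusted p of 0.993 and 0.929.

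Slc7a7 encodes y+LAT1, the basolateral exchanger of dibasic against neutral amino acids. At 24 h it had 523, 598 and 432 TPM in the sham and 299, 409, 227 and 492 TPM in the UNx animals. UNx animals 1, 2 and 3 lay below all sham animals, and UNx animal 4 lay among them. The difference was -0.56 (SE 0.264, 95% interval -1.14 to 0.03, p = 0.0598), with an adjusted p of 0.292. Without the low-correlation libraries it was -0.73 (adjusted p = 0.128). At 72 h the means were 401 ± 125 TPM in sham against 458 ± 97.4 TPM in UNx animals, and the difference was 0.07 (SE 0.301, adjusted p = 0.896).

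Slc7a8 encodes LAT2, the basolateral exchanger of neutral amino acids. Its sham animals at 24 h had 550, 320 and 194 TPM and its UNx animals 165, 242, 134 and 166 TPM, which overlap through UNx animal 2 and sham animal 3. The difference was -0.67 (SE 0.327, 95% interval -1.39 to 0.06, p = 0.0672, adjusted p = 0.302). Without the low-correlation libraries the sham animals had 247 to 320 TPM and the difference was -0.74 (adjusted p = 0.0938). At 72 h the means were 282 ± 107 TPM in sham against 281 ± 33.7 TPM in UNx animals, and the difference was -0.35 (SE 0.376, adjusted p = 0.545). Slc3a2, the heavy chain of both exchangers, stood at 828.97 ± 181 TPM in sham against 608 ± 161 TPM in UNx animals at 24 h, a log2 difference of -0.44 (SE 0.240, adjusted p = 0.333), and at 891 ± 310 and 911 ± 178 TPM at 72 h (-0.01, adjusted p = 0.983). Slc7a7 kept a narrow ratio to Slc3a2 within each group, from 0.582 to 0.699 in sham and 0.526 to 0.624 in UNx animals at 24 h and from 0.428 to 0.501 and 0.435 to 0.535 at 72 h.

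Slc6a13 encodes GAT2, a sodium-dependent carrier of GABA and taurine. At 24 h it had 95.4, 78.0 and 111 TPM in the sham and 165, 118, 177 and 94.3 TPM in the UNx animals. UNx animals 1, 2 and 3 lay above all sham animals and UNx animal 4 among them. The difference was 0.53 (SE 0.238, 95% interval 0.01 to 1.06, p = 0.0474) with an adjusted p of 0.277, and it was 0.39 without the low-correlation libraries. At 72 h the sham animals had 46.4, 51.5, 45.0, 58.6 and 81.4 TPM and the UNx animals 44.2, 55.9, 96.0, 104 and 101 TPM. UNx animals 3, 4 and 5 were above all sham animals there, and the difference was 0.41 (SE 0.294, adjusted p = 0.370).

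Across the set, 0 of 8 members passed an adjusted p of 0.05 in PT-S1 at 24 h and 0 of 8 at 72 h, where 0% of 11874 and 0% of 11886 tested genes did. At an unadjusted p under 0.05 stood 1 of 8 members at 24 h, against 17.8% of all genes tested, and 0 of 8 at 72 h, against 20.5%. The members' median difference was -0.13 at 24 h and 0.03 at 72 h, beside -0.19 and -0.29 over all genes tested. Of the 8 members, 0 had sham and UNx animals that did not overlap at 24 h, where 14.9% of all genes tested were free of overlap. Without the low-correlation libraries, 4 of 8 (Slc6a19, Slc7a7, Slc7a8 and Slc7a9, all lower in UNx) were free of overlap, against 23.1% of all genes, and the sham value nearest to the UNx animals was 324 TPM for Slc7a9 beside 322 TPM in the highest UNx animal. The difference of both effects, 72 h minus 24 h, was 0.63 for Slc7a7, 0.53 for Slc6a19, 0.32 for Slc7a8 and 0.23 for Slc7a9, and between -0.15 and -0.08 for the other 4. None of the 8 passed, each at an adjusted p of 0.998, and 0% of all 11455 genes tested did. With animals weighted by their fit (limma's arrayWeights), 2 of 8 members were called at 72 h, Slc6a13 (0.88, adjusted p = 0.00797) and Slc6a20b (0.81, adjusted p = 0.0469). In all, 1346 of 11886 genes tested were called under that setting.

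**Figure D2:**
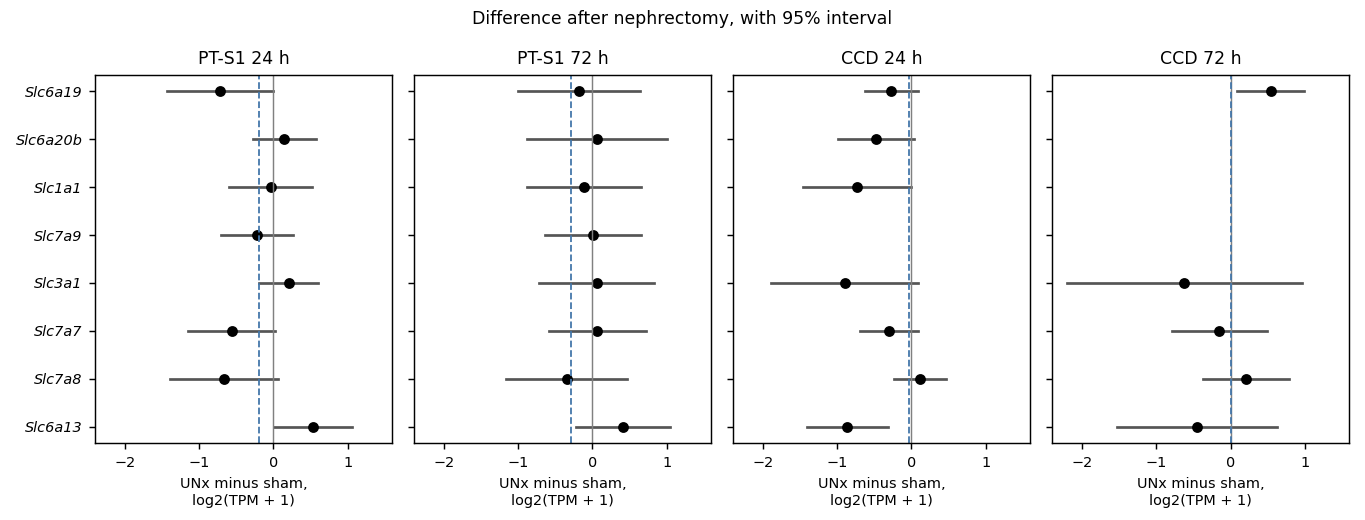
Difference between UNx and sham animals on the log2(TPM + 1) scale (points) with 95% intervals (bars) for the members tested in each table; the solid line marks 0 and the dashed line the median over all genes tested. In PT-S1 all intervals reach 0 except that of Slc6a13 at 24 h, which begins at 0.01.

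The 72 h values turned on 2 libraries. In the low-correlation library of UNx animal 1, Slc6a20b read 9.69 TPM, Slc1a1 13.3 and Slc3a1 46.5 TPM, against 117, 161 and 287 TPM in the other library of the same animal. That of UNx animal 2 read 13.95 TPM for Slc6a20b, 51.7 for Slc6a19 and 21.2 for Slc7a8, against 146.5, 683 and 453 TPM in its partner library. Without both libraries, all 8 differences at 72 h were positive, from 0.43 for Slc7a9 and 0.48 for Slc7a8 to 0.66 for Slc6a13 and 0.74 for Slc6a20b, with adjusted p between 0.201 and 0.344. With the low-correlation libraries of both times left out, those of sham animals at 24 h included, the difference of effects between times was larger. It reached 1.29 for Slc7a7, 1.26 for Slc6a19 and 1.21 for Slc7a8, with adjusted p of 0.0615, 0.0595 and 0.0814 by limma.

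Among PT-S1 animals the members did not vary as 1 group. Over the 17 animals, deviations of log2(TPM + 1) from the group mean were correlated between every pair, with Pearson's r from 0.31 (Slc7a7 with Slc6a13) to 0.98 (Slc3a1 with Slc6a20b) and a median of 0.82. All pairs share libraries, and most genes varied together where the low-correlation libraries were kept: the median r between a member and all other genes was between 0.47 and 0.68 with them and between -0.05 and 0.16 without them. Without them the pairs ran from -0.27 to 0.95. Slc6a19, Slc7a7, Slc7a8 and Slc7a9 stayed at r between 0.70 and 0.84 with each other, and Slc3a1, Slc6a20b and Slc1a1 at r between 0.85 and 0.95. Slc6a13 was at r between -0.27 and 0 with the first 4 and between 0.47 and 0.62 with the other 3. The partners of the cystine carrier, Slc7a9 and Slc3a1, were at r = 0.58, lower than Slc7a9 with Slc6a19 (0.84) or Slc3a1 with Slc6a20b (0.95). These correlations are a description of 17 animals.

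**Figure D3:**
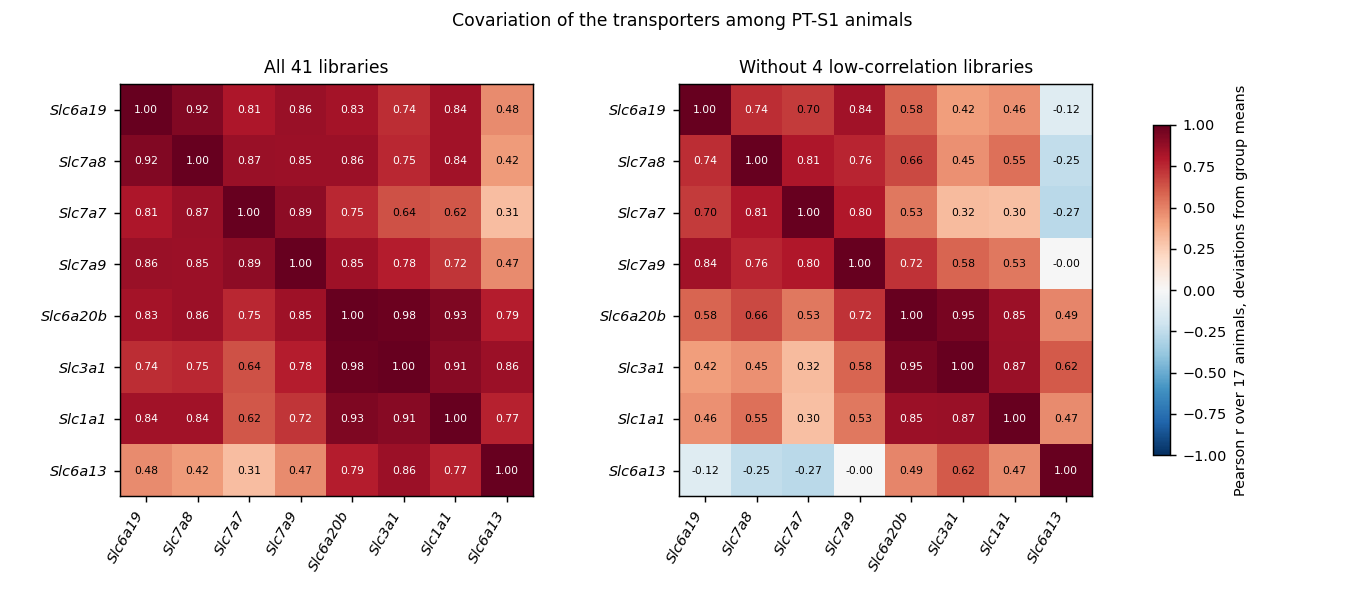
Pearson's r between members over 17 PT-S1 animals, computed on deviations of log2(TPM + 1) from the group means, with all 41 libraries (left) and without the 4 low-correlation libraries (right). On the right Slc6a13 stands at or below 0 with Slc6a19, Slc7a7, Slc7a8 and Slc7a9.

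The genes whose deviations were most like a member's were taken from 6350 genes with a mean of at least 10 TPM in both PT-S1 tables, over the same 17 animals. For Slc7a7 the nearest gene was Slc3a2, the gene of its own heavy chain, at r = 0.976 with all libraries and 0.973 without the low-correlation libraries. For Slc6a13 it was Slc22a6, the organic anion transporter OAT1 (also among the S1 and S2 markers), at 0.963 and 0.928. For Slc6a20b the nearest were Slc39a11 (0.992) and Fuca2 (0.991), for Slc3a1 Glb1 (0.984) and Sardh (0.979), for Slc1a1 Slc33a1 and Mmgt1 (0.985 each), for Slc7a8 Nox4 (0.986) and Tmem144 (0.965), for Slc6a19 Kcnj16 (0.973) and Car12 (0.963) and for Slc7a9 Tcn2 (0.960) and Tspan7 (0.959). Without the low-correlation libraries the first place went to other genes for 6 of the 8 members, such as Jam3 for Slc6a19 (0.895), Apob for Slc7a8 (0.947) and Itfg1 for Slc6a20b (0.985).

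Markers of S3 moved with part of this pattern. At 24 h the S3 marker sum was 5159, 2341 and 7909 TPM in the sham and 10597, 20293, 23753 and 2069 TPM in the UNx animals, so that UNx animals 1, 2 and 3 were above all sham animals and UNx animal 4 below them. The sum mostly reflects its most abundant markers: in UNx animal 3, Kap gave 19280 and Slc27a2 3475 TPM. Slc22a7 did not follow this order, at 14.7, 0.525 and 11.4 TPM in sham and 1.36, 39.9, 7.3 and 0.40 TPM in UNx animals. Of 9 S3 markers tested, 8 were higher and 1 lower in UNx at 24 h, where 29.1% of all genes tested were higher. Their median difference was 0.86, with 0 under 0.05 at either the adjusted or the unadjusted p by limma. Slc7a13, an S3 amino acid transporter named here after its values were seen, had 35.2, 1.31 and 41.2 TPM in sham and 12.4, 169, 44.5 and 0.92 TPM in UNx animals, and the most abundant S3 marker, Kap, ran from 673 TPM in UNx animal 4 to 19280 TPM in UNx animal 3. In UNx animal 2 at 24 h, the library with an S3 sum of 39524 TPM had Slc6a13 at 160 and Slc7a7 at 294 TPM, and the library with 1062 TPM had them at 75.8 and 523 TPM. The same was seen in sham animal 5 at 72 h, where the library with an S3 sum of 37793 TPM had Slc6a13 at 124 and Slc7a7 at 272 TPM, against 54.7 to 65.3 and 408 to 556 TPM in its other 2 libraries. It was not seen in every animal. Sham animal 1 at 24 h had Slc6a13 at 107 and Slc7a7 at 562 TPM where the S3 sum was 10062 TPM. Where it was 2869 TPM, they were at 106 and 490 TPM. In sham animal 2 at 72 h, S3 sums of 10149 and 1037 TPM went with Slc6a13 at 52.2 and 50.7 and Slc7a7 at 475 and 580 TPM.

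Over the 17 PT-S1 animals, deviations of Slc6a13 and of the log2 S3 marker sum from their group means were correlated at Pearson's r = 0.78 (permutation p = 0.00044, adjusted over 8 members 0.0035) and Spearman's rho = 0.70 (permutation p = 0.0026, adjusted 0.021). Without the 2 animals farthest from the median S3 sum r was 0.58, within 24 h it was 0.93 over 7 animals and within 72 h 0.73 over 10 animals, and without the low-correlation libraries it was 0.83. For Slc3a1, Pearson's r was 0.65 (permutation p = 0.0066, adjusted 0.026) and rho 0.59 (p = 0.015, adjusted 0.059), and r fell to 0.42 without the 2 farthest animals. With all libraries the other 6 members had r between -0.03 and 0.57 and none passed the adjusted threshold. Without the low-correlation libraries, Slc1a1 and Slc3a1 passed by rho (0.59 and 0.58, adjusted permutation p = 0.043 each). By Pearson's r they did not (0.49 and 0.55, adjusted permutation p = 0.123 and 0.082). Slc7a7 was at r = -0.97 within 24 h and 0.39 within 72 h, and at -0.90 and -0.03 without the low-correlation libraries. The permutations moved deviations freely among the groups, while the deviations within a group depend on each other. The permutation p above are therefore approximate and may be too small. The part of S3 tissue in the UNx differences was not tested.

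**Figure D4:**
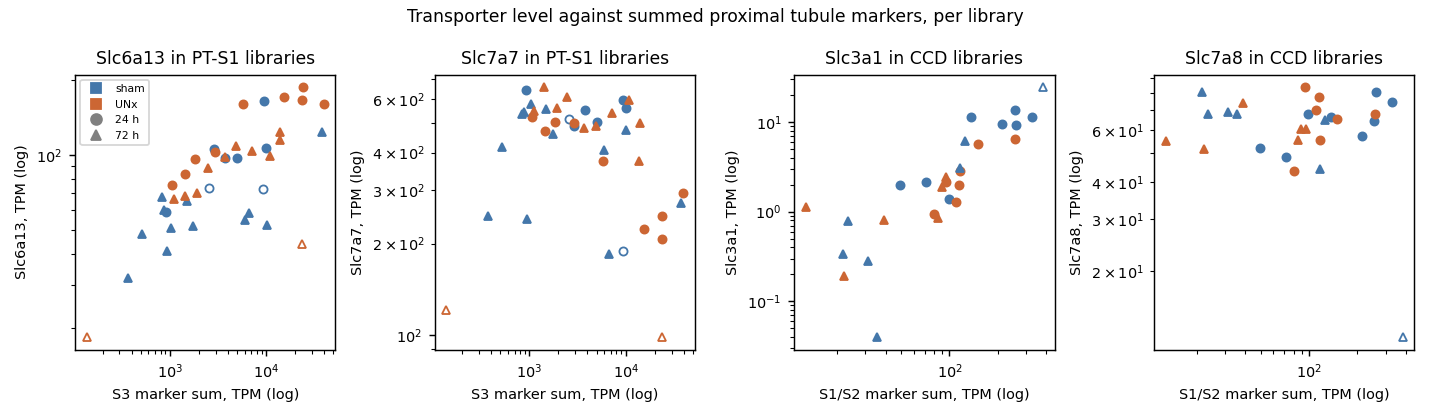
Level of a member (TPM, log axis) against the summed level of proximal tubule markers in the same library (TPM, log axis); left to right, Slc6a13 and Slc7a7 in the 41 PT-S1 libraries against S3 markers, and Slc3a1 and Slc7a8 in the 28 CCD libraries against S1 and S2 markers. Circles are 24 h, triangles 72 h, blue sham, orange UNx, open symbols low-correlation libraries; Slc6a13 and Slc3a1 are higher where the marker sum is higher, and Slc7a8 in CCD stays between 43.6 and 83.9 TPM in all libraries but the open one.

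In CCD, which reabsorbs salt and water and few amino acids, most members were near 0, with the exception of Slc7a8. Slc7a8 stood at 61.5 ± 9.65 TPM in sham (n = 4) and 66.8 ± 12.4 TPM in UNx animals (n = 3) at 24 h and at 55.8 ± 16.999 and 58.0 ± 5.67 TPM (n = 4 each) at 72 h. Its mean in sham animals was 5.77 times as high in PT-S1 as in CCD at 24 h and 5.06 times at 72 h. Its heavy chain partner Slc3a2 was present in CCD as well, at 213 ± 11.5 TPM in sham animals at 24 h, 3.89 times lower than in PT-S1. Slc3a1 followed at 6.72 ± 3.28 TPM in sham animals at 24 h, with a wide spread, and Slc6a19 at 5.48 ± 1.02 TPM. Slc6a19 was above 1 TPM in all 28 CCD libraries, between 1.36 and 6.64 TPM. Segment means set across tables are a description, since the tables were treated as normalized separately.

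The other members separated the segments further. The mean of sham animals at 24 h was 397 times higher in PT-S1 for Slc7a9, 249 times for Slc7a7, 133 times for Slc6a19, 102 times for Slc1a1, 98.5 times for Slc6a20b, 53.2 times for Slc3a1 and 44.8 times for Slc6a13. In CCD libraries Slc3a1 ran from 0.04 to 24.5 TPM, Slc6a13 from 0.02 to 9.21 TPM, Slc1a1 from 0 to 4.46 TPM, Slc7a9 from 0 to 3.60 TPM and Slc6a20b from 0.02 to 3.13 TPM, and the highest value of the first 3 and of Slc7a9 was in the low-correlation library. Slc7a7 was between 0.51 and 3.52 TPM.

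**Figure D5:**
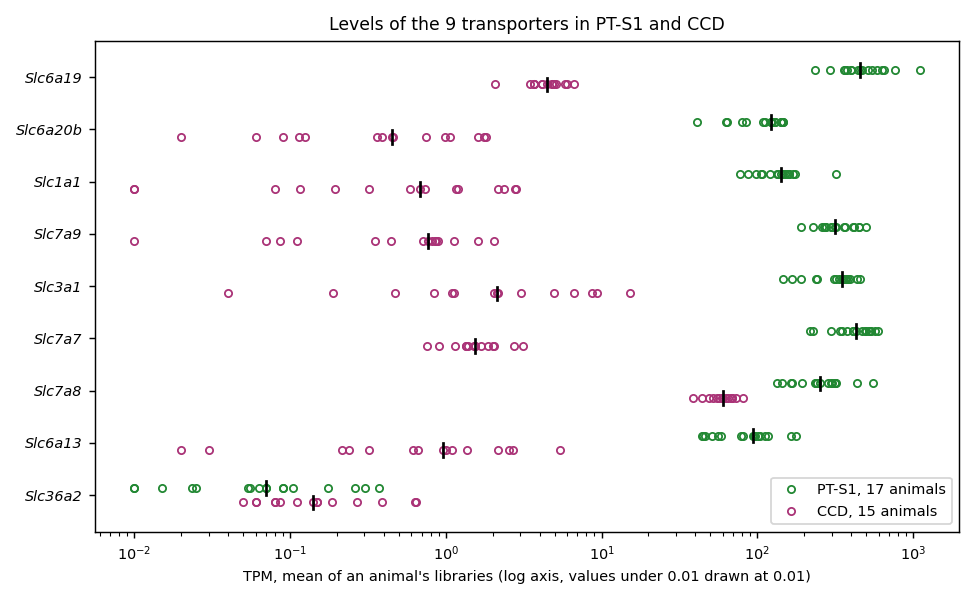
Level of the 9 members in PT-S1 (green) and CCD (purple), each circle the mean of an animal's libraries in TPM on a log axis and each bar the median of the segment's animals. Slc7a8 has the smallest gap between segments among the 8 members abundant in PT-S1, and Slc36a2 is under 1 TPM in both.

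The low levels of 5 members in CCD went along with proximal tubule markers in the same tissue. Unlike in PT-S1, animals of both times, sham and UNx, were pooled here without taking deviations from group means. Differences between groups therefore enter r, rho and their permutation p. Over the 15 CCD animals, log2 levels were correlated with the log2 sum of S1 and S2 markers at Pearson's r = 0.86 for Slc7a9, 0.85 for Slc6a20b, 0.84 for Slc3a1, 0.81 for Slc1a1 and 0.79 for Slc6a13, with permutation p of at most 0.00028 and adjusted p (9 members) of at most 0.00050. Spearman's rho was 0.88, 0.84, 0.83, 0.81 and 0.79, with adjusted permutation p of at most 0.0014. Without the 2 animals farthest from the median marker sum r was 0.82, 0.86, 0.90, 0.78 and 0.79. Within 24 h (7 animals) r was 0.63, 0.73, 0.76, 0.45 and 0.52, and within 72 h (8 animals) 0.95, 0.83, 0.81, 0.91 and 0.88, which were not tested. Slc6a19 (r = 0.15, rho = 0.08, adjusted permutation p = 0.587 and 0.878) and Slc7a8 (r = -0.17, rho = 0.02, adjusted permutation p = 0.587 and 0.945) showed no such relation. Neither did Slc36a2 (r = -0.35, rho = -0.22, adjusted permutation p = 0.268 and 0.558). Slc7a7 lay between these and the 5 members (r = 0.52, rho = 0.57, adjusted permutation p = 0.0616 and 0.0433). Without the low-correlation library Slc7a7 passed by both measures (r = 0.56, rho = 0.61, adjusted permutation p = 0.0411 and 0.0248). The 5 members were then at r between 0.78 and 0.84, and Slc6a19 and Slc7a8 at 0.32 and 0.17.

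After UNx, 0 of 7 members tested in CCD at 24 h and 0 of 5 at 72 h passed the adjusted threshold, where 0.987% of 13775 and 0.595% of 13770 genes did. At 24 h Slc6a13 had 2.54, 2.17, 1.09 and 2.69 TPM in the sham and 0.240, 0.615 and 1.01 TPM in the UNx animals, with every UNx animal below every sham animal. Its difference was -0.86 (SE 0.242, p = 0.0060, adjusted p = 0.135). Slc3a1 had 9.39, 6.65, 2.12 and 8.73 TPM in the sham and 1.10, 2.05 and 4.98 TPM in the UNx animals, which overlap (difference -0.90, SE 0.437, adjusted p = 0.372). Slc1a1 (-0.73, adjusted p = 0.320), Slc6a20b (-0.48, adjusted p = 0.355), Slc7a7 (-0.31, adjusted p = 0.438) and Slc6a19 (-0.27, adjusted p = 0.458) were also at lower values and Slc7a8 at a slightly higher one (0.11, adjusted p = 0.785). Slc6a13 and Slc7a7, 2 of 7 members, did not overlap between the groups, against 15.1% of all genes tested. Over all genes tested in CCD at 24 h, 41.8% were higher in UNx. Beside the members' values, 9 of 9 S3 markers and 6 of 6 thick ascending limb markers were lower in UNx CCD at 24 h, with median differences of -1.15 and -1.77. By limma 0 of them passed the adjusted threshold, and 6 and 4 had an unadjusted p under 0.05, as had 2 of 7 members and 15.5% of all genes. The S3 sum was 577, 458, 370 and 703 TPM in sham and 111, 206 and 554 TPM in UNx animals. Over libraries, the thick ascending limb sum ran from 85.1 to 8597 TPM in sham (median 131). In UNx it ran from 62.7 to 211 TPM, with a higher median of 158 TPM. Among the S3 markers, Cyp7b1 was higher in CCD, at 52.8 to 73.9 TPM over the animals at 24 h, than in PT-S1, at 0.035 to 1.57 TPM. Of 7 S1 and S2 markers tested, 1 was higher and 6 lower, with a median difference of -0.12 and 0 at an unadjusted p under 0.05, and their sum overlapped, at 236, 93.1, 71.8 and 227 TPM in sham and 95.2, 105 and 174 TPM in UNx animals. Their part in the members' differences was not tested.

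At 72 h in CCD, Slc6a19 had 3.67, 3.67, 2.06 and 3.48 TPM in the sham and 4.92, 3.67, 5.80 and 5.13 TPM in the UNx animals, and the groups met at 3.67 TPM. The difference was 0.54 (SE 0.20, p = 0.0226, adjusted p = 0.531), and 0.34 without the low-correlation library (adjusted p = 0.569). Slc7a8 (0.21), Slc7a7 (-0.15), Slc6a13 (-0.45) and Slc3a1 (-0.62) had adjusted p between 0.918 and 0.962. The sham value of Slc3a1 rested on animal 1, at 15.3 TPM with the low-correlation library and 6.06 TPM without it, beside 3.06, 0.04 and 0.470 TPM in the other 3.

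Partner proteins and brush border peptidases formed a list of 13 symbols, 11 of them tested in PT-S1. At 24 h 3 were at higher and 8 at lower values in UNx, at 72 h likewise 3 and 8, with median differences of -0.21 and -0.14, 0 adjusted p under 0.05 by limma at either time, and 0 and 1 unadjusted p under 0.05. Over all genes tested, 29.1% and 16.99% were at higher values, and 17.8% and 20.5% had an unadjusted p under 0.05. Slc3a2, described above, had one of the smallest p of the list at 24 h. Those of smallest p at 72 h were Slc9a3r1 (-0.66, adjusted p = 0.244) and Pdzk1 (-0.51, adjusted p = 0.277), scaffolds of the brush border.

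Of 38 other amino acid transporters, 25 were tested in PT-S1 at 24 h (10 higher, 15 lower, median -0.21) and 24 at 72 h (8 higher, 16 lower, median -0.24), and 0 passed the adjusted threshold of limma at either time, with 5 and 4 at an unadjusted p under 0.05. The shares over all genes tested were 29.1% and 16.99% higher, with 17.8% and 20.5% at an unadjusted p under 0.05. Slc43a2, which encodes LAT4, a basolateral facilitated carrier of branched-chain and aromatic amino acids, had the smallest p at 24 h, at 104 ± 41.9 TPM in sham against 51.0 ± 4.80 TPM in UNx animals (difference -0.88, SE 0.261, p = 0.0069, adjusted p = 0.254). Beside it and Slc6a8, the genes at an unadjusted p under 0.05 at 24 h, named after their values were seen, were Slc7a2 (-0.89, adjusted p = 0.254) and, with larger differences in the other direction, Slc38a3 (2.65, SE 0.896, p = 0.0138, adjusted p = 0.254) and Slc6a18 (1.67, SE 0.724, p = 0.0431, adjusted p = 0.274). Slc38a3 ranged from 1.80 to 1.99 TPM in sham and from 1.42 to 83.6 TPM in UNx animals, and Slc6a18 from 17.9 to 46.8 and from 23.9 to 372.6 TPM, so that both groups overlapped for both genes. At 72 h Slc43a2 had no such difference (-0.01, adjusted p = 0.985). Slc6a8, the creatine carrier, was at 59.0 ± 11.6 against 39.9 ± 3.51 TPM at 24 h (-0.50, adjusted p = 0.254) and at 67.7 ± 9.34 against 47.5 ± 6.38 TPM at 72 h (-0.52, adjusted p = 0.237). Slc16a10, the basolateral carrier of aromatic amino acids TAT1, was at -0.24 and -0.52, with adjusted p of 0.487 and 0.237.

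Enzymes of amino acid breakdown and synthesis gave 7 higher and 26 lower of 33 tested at 24 h (median -0.23) and 7 higher and 27 lower of 34 tested at 72 h (median -0.26), again with 0 past the adjusted threshold of limma and 8 and 0 at an unadjusted p under 0.05. Beside them, 29.1% and 16.99% of all genes tested were higher, and 17.8% and 20.5% were at an unadjusted p under 0.05. Ass1, argininosuccinate synthase of arginine synthesis, was at 265 ± 8.60 TPM in sham against 149 ± 29.2 TPM in UNx animals at 24 h (-0.79, SE 0.176, p = 0.0011, adjusted p = 0.228). Aldh4a1, of proline breakdown, was at 371 ± 96.9 and 201 ± 25.2 TPM (-0.77, adjusted p = 0.254). Bcat2 (-0.59, adjusted p = 0.244) and Oat (-0.60, adjusted p = 0.252) had the smallest p of the list at 72 h.

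Proximal tubule transcription factors stood at lower values in UNx, 10 of 11 at 24 h (median -0.34) and 11 of 11 at 72 h (median -0.45), where 29.1% and 16.99% of all genes tested were at higher values. By limma 0 passed the adjusted threshold, and 4 and 3 had an unadjusted p under 0.05, as had 17.8% and 20.5% of all genes tested. Cebpa, at 3.87 ± 0.351 TPM in sham animals, had a difference of -0.58 at 24 h (adjusted p = 0.254). Maf and Ppara had the smallest p at 72 h, at -0.45 and -0.46, each with an adjusted p of 0.241.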

How the data were processed

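RNA of hand-dissected tubules was made into cDNA with SMART-Seq V4, per the labels' protocols. The authors deposited 4 tables of TPM, made with STAR and RSEM 1.3.3 on GRCm39, per the submitters' processing notes; the annotation is not given in the sources used here. TPM is relative within a library and keeps no depth, so a rise of a few abundant genes lowers the rest, and the precision of low values cannot be given. Of 69 columns, 47 matched 1 sample and 22 only a group and animal.

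Libraries were averaged per animal as log2(TPM + 1). Genes with a mean of at least 1 TPM were tested with limma 3.58.1 (R 4.3.3) with a mean-variance trend, two-sided, with Benjamini-Hochberg adjustment over all genes tested and a threshold of 0.05. The script was tested on simulated data. Correlations with marker sums used 100000 permutations (scipy 1.17.1), two-sided, and were added after seeing the data, as were the overlap and covariation without low-correlation libraries. Named genes were the 9 members, Slc3a2, Cltrn, the 2 genes of smallest p per list and PT-S1 table, the 2 most like each member, and the leading markers. Some genes that this rule names are not reported here. The members and lists were chosen with earlier results of these data known. Animal numbers were not used to pair sham with UNx animals in the tests as reported. Whether PT-S1 and CCD came from the same mice is not stated.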

Additional observations from a re-analysis of the deposited data

Results flagged for a closer look

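Of 54 combinations of a member with a group of 4 to 10 animals, 3 held an animal far from the others, and chance gives about 1 in 20. The combinations share animals and are not independent. Slc6a20b in PT-S1 of UNx animal 4 at 24 h was the lowest of 4, at 108.0 TPM. Slc6a19 in CCD of sham animal 3 at 72 h was the lowest of 4, at 2.06 TPM beside 3.67, 3.67 and 3.48 TPM. Without the low-correlation library of sham animal 1 the others were more spread, at 5.98, 3.67 and 3.48 TPM. Slc6a20b in CCD of UNx animal 4 at 72 h was the highest of 4, at 0.45 TPM.

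For 2 members every UNx animal at 24 h lay on 1 side of the sham mean of log2(TPM + 1) in PT-S1 and on the opposite side in CCD, and the difference between segments was not tested. Slc3a1, Slc6a20b and Slc7a8 also had opposite signs in the segments, without meeting that condition in every animal. Slc6a13 was at 0.53 in PT-S1 and -0.86 in CCD on the log2(TPM + 1) scale. Slc7a9 was at -0.22 in PT-S1 and 0.14 in CCD, where its mean was below 1 TPM and the value was -0.073 without sham replicate 3.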

How the results depend on the processing

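Depth is unknown, so what low values in CCD can resolve cannot be given. In the tests as reported 0 members were called in any table. This held under all alternatives but arrayWeights, which weights animals by fit. Among the genes it called in PT-S1 at 72 h, counted below, were 2 members, Slc6a13 (0.88, adjusted p = 0.00797) and Slc6a20b (0.81, adjusted p = 0.0469). The cause was not tested.

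The number of all genes called moved more. At 24 h in PT-S1 it went from 0 to 1426 with arrayWeights, 100 with animal as a random effect, 85 with every library as a replicate, 2 with no filter, 1 with median-ratio scaling, 1 without the low-correlation libraries and up to 8 with an animal left out. At 72 h it went from 0 to 1346, 10 and 18 of 11886 genes tested under the first 3 and to 1 without the low-correlation libraries. In CCD at 24 h it went from 136 to 1027 with every library, 485 with a random effect, 204 with arrayWeights, 1 with no filter and 7 to 78 with an animal left out. In CCD at 72 h it went from 82 to 150 with every library, 129 without the low-correlation library, 39 at a minimum of 5 TPM, 7 with no filter and 8 to 73 with an animal left out. For the difference between times it went from 0 to 376 with arrayWeights, 187 without the low-correlation libraries and 1 with no filter.

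With the animal number as a replicate block, 80, 0, 0 and 3 genes were called in the 4 tables and 0 members. Same-numbered animals deviated together in part only, with correlations of -0.04, 0.09 and 0.26 in PT-S1 at 24 h and from -0.37 to 0.33 at 72 h. So few correlations cannot tell whether these animals share more than a number. Slc1a1 at 24 h turned from -0.04 to 0.057 with the block.

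Some values changed sign. In PT-S1 at 24 h, Slc1a1 was at 0.18 with median-ratio scaling and 0.068 with arrayWeights, and Slc6a20b at -0.011 without the low-correlation libraries. At 72 h, Slc6a19, Slc7a8 and Slc1a1 were at 0.21, 0.035 and 0.26 with median-ratio scaling, 0.12, 0.073 and 0.18 with the log2 of mean TPM, 0.44, 0.24 and 0.43 with arrayWeights and 0.51, 0.48 and 0.53 without the low-correlation libraries, and Slc1a1 at 0.12 with quantile normalization. In CCD at 72 h, Slc7a7, Slc7a8, Slc3a1 and Slc6a13 were at 0.11, -0.12, 0.22 and 0.060 with arrayWeights, and Slc7a8 at -0.088 without the low-correlation library. For the difference between times, Slc6a20b, Slc3a1, Slc1a1 and Slc6a13 were at 0.071, 0.015, 0.081 and 0.041 with median-ratio scaling, 0.18, 0.018, 0.19 and 0.042 with quantile normalization, 0.64, 0.45, 0.36 and 0.30 with arrayWeights and 0.75, 0.51, 0.61 and 0.27 without the low-correlation libraries. With the log2 of mean TPM, Slc6a20b, Slc3a1 and Slc1a1 were at 0.30, 0.084 and 0.51, and Slc1a1 was at 0.060 with every library and 0.049 with a random effect. The cause was not tested.

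With an animal left out, values ran in PT-S1 at 24 h from -0.033 to 0.27 for Slc6a20b, -0.41 to 0.013 for Slc7a9 and -0.28 to 0.29 for Slc1a1. At 72 h they ran from -0.37 to 0.073 for Slc6a19, -0.17 to 0.37 for Slc6a20b, -0.13 to 0.22 for Slc7a7, -0.18 to 0.18 for Slc7a9, -0.12 to 0.33 for Slc3a1 and -0.26 to 0.17 for Slc1a1. In CCD they ran from -0.038 to 0.23 for Slc7a8 at 24 h, and at 72 h from -0.31 to 0.073 for Slc7a7, -0.062 to 0.38 for Slc7a8 and -1.13 to 0.10 for Slc3a1. For the difference between times they ran from -0.32 to 0.22 for Slc6a20b, -0.0084 to 0.41 for Slc7a9, -0.33 to 0.12 for Slc3a1, -0.40 to 0.20 for Slc1a1 and -0.29 to 0.12 for Slc6a13.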
